A study of Mus musculus with 6 samples.

Results

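The lungs of RbpjkCNULL mice at E18.5 contained higher levels than control lungs of 28 transcripts that still carried provisional names, either a RIKEN clone code ending in Rik or a gene model number starting with Gm. In RbpjkCNULL embryos (Shhcre/+; RbpjkFlox/Flox), Cre expressed from the Shh gene removes Rbpjk, the DNA-binding effector of Notch receptors, from the airway epithelium. The control lungs carry a contradiction in their labels, since one field gives Shh cre/+ and another wildtype, and they are called controls here. All mice were on the C57BL/6 strain, and RNA from 3 RbpjkCNULL and 3 control lungs, taken whole from the carina outward, was hybridised to 1 Affymetrix array per lung. The deposited values are log2 expression values, 1 per Entrez Gene, and a difference of 1 is a 2-fold change.

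The 28 genes were chosen by a rule on these same values. Of 21225 measured genes, 1141 had a symbol of the Rik or Gm kind, 657 of them Rik and 484 Gm. A gene was taken when the mean of the RbpjkCNULL lungs exceeded that of the control lungs by more than 0.4 and when its lowest RbpjkCNULL value lay above its highest control value. The genes 1700028P14Rik and 1700007K13Rik were left out by name. The same conditions were met by 2.63% of Rik and Gm genes, these 2 included, and by 1.84% of all genes. In the opposite direction the shares were 0.701% and 0.485%. Because the difference and the absence of overlap decided which genes were taken, their values are described here and carry no test.

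Features of the whole series touch these values. Rbpj had log2 values of 6.26, 6.17 and 6.18 in RbpjkCNULL lungs, against 6.45, 6.50 and 6.74 in control lungs (difference -0.36, adjusted p = 0.21 from limma), in whole lungs that also hold cells outside the airway epithelium. Xist, expressed from the inactive X of females, was low in the RbpjkCNULL lungs (4.13 to 4.28) and in control replicate 3 (4.91), and high in control replicates 1 and 2 (10.5 and 10.7). The Y gene Uty was high in the RbpjkCNULL lungs (8.40 to 9.40) and in control replicate 3 (8.65), and low in control replicates 1 and 2 (3.35 and 3.31). The Y genes Eif2s3y and Kdm5d divided the lungs in the same way, so sex and genotype are partly confounded. Against control replicate 3 alone, the control lung of low Xist, the mean of the RbpjkCNULL lungs was higher for 28 of the 28 genes. The rule fixed this direction in advance, because it set every RbpjkCNULL value above every control value. The median over the 28 genes was 0.56, with a range of 0.34 to 1.10, against a median of -0.09 over all 21225 genes. A difference over 0.4 was found for 367 of all genes and for 25 of the 28, which were chosen with this lung included. The exceptions were Gm10651 (0.36), 2410004P03Rik (0.39) and 1110032A03Rik (0.34). Control replicates 1 and 3 and RbpjkCNULL replicate 1 had lower quartiles of 5.03 to 5.11. Those of control replicate 2 and RbpjkCNULL replicates 2 and 3 were 4.87 to 4.89. The split crosses genotype but is uneven between the groups, so lower quartile and genotype are also partly confounded.

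A Rik or Gm name states only that a transcript was cloned or predicted and that no function had been assigned when the symbol was given. RIKEN codes keep a trace of origin, because their leading digits name the cDNA library of the clone, and several codes stand for libraries of adult mouse testis. Testis and airway share a structure, the axoneme, which beats in the sperm flagellum and in the motile cilia of multiciliated airway cells. Loss of Notch signaling in the airway epithelium is known to shift progenitors from the secretory fate, that of Clara or club cells (CCs), to the ciliated fate. Ciliated cells build their axonemes under the transcription factors Foxj1 and Rfx2 and Rfx3, and RFX factors bind the X-box, whose core is the word GTTGCC facing its reverse complement GGCAAC.

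RefSeq promoter sequences (build GRCm38.p6, 250 bases before to 50 after a gene's start) were found for 23 of the 28 genes and not for 1600029I14Rik, Gm10651, 2210408I21Rik, 1700024G13Rik and 1700016K19Rik. The RFX word was present on either strand in 8 of these 23 genes, whose sequences are shown. Narrower forms of the word cannot be shared by more genes, and the only other word searched, TGTTTAC, is longer. In 2 of the 8 genes, 1700001L19Rik and 1110017D15Rik, the words on both strands face each other with 1 base between them. The whole windows of these 2 genes are printed first. Capitals mark GTTGCC and GGCAAC, each sequence runs 5′ to 3′ along its gene, and the start site lies after base 250 of a window of 300 bases.
1700001L19Rik, chr13:68597189-68597488, plus strand: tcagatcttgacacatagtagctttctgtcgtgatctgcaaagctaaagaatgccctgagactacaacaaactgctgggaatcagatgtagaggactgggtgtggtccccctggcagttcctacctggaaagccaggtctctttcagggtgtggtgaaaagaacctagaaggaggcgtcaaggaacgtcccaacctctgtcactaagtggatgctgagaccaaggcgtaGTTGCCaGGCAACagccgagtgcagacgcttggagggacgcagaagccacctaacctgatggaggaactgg
1110017D15Rik, chr4:41507715-41508014, minus strand: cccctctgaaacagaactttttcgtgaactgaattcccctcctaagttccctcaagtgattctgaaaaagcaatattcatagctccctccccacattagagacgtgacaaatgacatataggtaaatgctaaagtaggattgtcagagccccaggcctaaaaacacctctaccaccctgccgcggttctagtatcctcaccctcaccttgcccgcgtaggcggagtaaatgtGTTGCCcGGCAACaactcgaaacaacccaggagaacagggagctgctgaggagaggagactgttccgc

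For the other 6 genes the stretch around the word is given, with the coordinates of that stretch.
2610028H24Rik, chr10:76448934-76449071, plus strand: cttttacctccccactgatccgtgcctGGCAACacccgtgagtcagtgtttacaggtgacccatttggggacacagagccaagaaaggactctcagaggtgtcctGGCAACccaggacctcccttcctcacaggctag
1700094D03Rik, chr3:90062669-90062728, plus strand: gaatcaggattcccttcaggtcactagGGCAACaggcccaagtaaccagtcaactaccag
Gm11992, chr11:9048545-9048604, plus strand: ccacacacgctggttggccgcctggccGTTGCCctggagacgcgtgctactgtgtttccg
1700012B09Rik, chr9:14771076-14771135, minus strand: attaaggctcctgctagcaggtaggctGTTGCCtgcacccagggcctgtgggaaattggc
1700029J07Rik, chr8:45975237-45975296, minus strand: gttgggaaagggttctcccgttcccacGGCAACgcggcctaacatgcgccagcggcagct
4430402I18Rik, chr19:28967816-28967875, minus strand: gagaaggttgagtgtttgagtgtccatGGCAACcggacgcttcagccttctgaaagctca

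The RFX word was thus present in 34.8% of the genes with a promoter (95% exact binomial interval 16.4 to 57.3). A gene with several starts was counted when any of its windows held the word. It was present in 16 of 30 ciliated cell markers, or 53.3% (34.3 to 71.7), in 103 of 745 other Rik and Gm genes, or 13.8% (11.4 to 16.5), and in 13.9% of 15651 measured genes (13.3 to 14.4). The intervals of the 23 genes and of the other Rik and Gm genes overlap narrowly. The word 1 base longer, GTTGCCA, was found in 3 of the 23 genes (13%) and in 4.6% of measured genes. The forkhead word TGTTTAC, which Foxj1 and other forkhead factors can bind, was found on either strand in 1 of the 23, 2610028H24Rik, or 4.35%, against 3.53% of measured genes. These shares describe letters in a window and show neither binding nor its absence. The promoters of the 23 genes had a median GC content of 54.3%, those of all measured genes 57.3%.

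In 5 of the 8 genes the word began within the 25 bases before the start site. Its first base lay 20 bases before the start of Gm11992, 17 before that of 1700029J07Rik and 16 before that of 4430402I18Rik. The facing words began 21 and 14 bases before the start of 1700001L19Rik, and 18 and 11 bases before that of 1110017D15Rik. A word in this stretch was present in 21.7% of the 23 genes (7.46 to 43.7), in 16.7% of the ciliated markers, in 2.42% of the other Rik and Gm genes and in 1.57% of all measured genes. Facing words 0 to 3 bases apart were present in 2 of the 23 genes (8.7%), in 0 of the 30 ciliated markers and in 34 of 15651 measured genes (0.217%). The stretch of 25 bases and the facing words were searched for after the promoters had been seen.

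**Figure D1:**
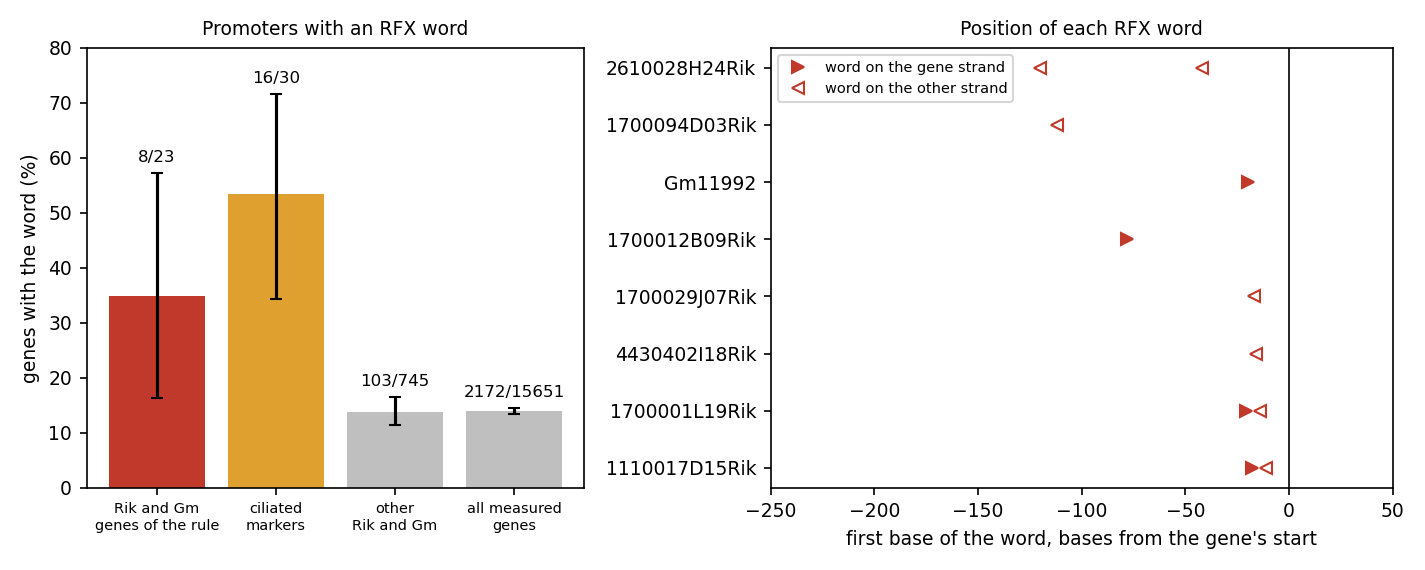
Left, percentage of genes whose promoter window holds the RFX word on either strand, with 95% exact binomial intervals and counts above the bars. Right, position of each word in the 8 Rik and Gm genes that hold it, in bases from the gene's start, where 5 genes have a word within 25 bases before the start.

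The largest differences among the 28 genes were near 2-fold. Gm281, a coding gene known only from predicted RefSeq transcripts, had log2 values of 6.37, 6.50 and 5.73 in RbpjkCNULL lungs, against 4.75, 4.94 and 5.39 in control lungs. It was 2.26-fold higher (log2 difference 1.18, standard error 0.23), although RbpjkCNULL replicate 3 lay only 0.34 above control replicate 3. Gm5431, which RefSeq also lists as Irgb9b8, had values of 5.64, 5.63 and 5.31 in RbpjkCNULL lungs, against 4.42, 4.12 and 4.81 in control lungs, and was 2.11-fold higher. 2610028H24Rik, a coding gene of no stated function, had values of 8.35, 8.18 and 8.12 in RbpjkCNULL lungs, against 7.20, 7.07 and 7.27 in control lungs. Its difference of 1.04 (standard error 0.09) came with the widest separation of the 28 genes, 0.86 between the lowest RbpjkCNULL and the highest control lung. No other gene of the 28 was over 2-fold higher.

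Gm5431 belongs to the immunity-related GTPases (IRG), large families of interferon-inducible proteins that act against intracellular pathogens. Its relatives, named after their values were seen, did not pass limma over all genes. Ifi47 had log2 values of 7.23, 6.47 and 6.56 in RbpjkCNULL lungs, against 6.00, 5.93 and 6.42 in control lungs, a difference of 0.63 (standard error 0.22, adjusted p = 0.438 from limma), and its groups did not overlap. The differences of Irgm1, Irgm2, Igtp, Iigp1 and Gm4951 lay between 0.15 and 0.33, and that of Gm12250 was -0.14. For Irgm1, Irgm2, Igtp, Iigp1, Ifi47, Gm12250 and Gm4951 RbpjkCNULL replicate 1 was the highest RbpjkCNULL lung, as it was for Gm5431, but also for 44.7% of all genes and 56.4% of Rik and Gm genes. IRG genes are close paralogues, and how far their probes tell them apart was not tested.

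Next in order were 6 genes with differences of 0.81 to 0.94. 1700094D03Rik had log2 values of 8.87, 9.18 and 9.09 in RbpjkCNULL lungs, against 7.92, 8.13 and 8.28 in control lungs (difference 0.94, 1.92-fold). Gm11992 had 6.26, 6.40 and 6.30 in RbpjkCNULL lungs, against 5.02, 5.50 and 5.79 in control lungs (0.88, 1.84-fold). Both are coding genes with an RFX word in the promoter, and in both control replicate 3 was the highest control lung. 1700013F07Rik had 6.98, 7.13 and 7.11 in RbpjkCNULL lungs, against 6.36, 6.00 and 6.39 in control lungs (0.82, 1.77-fold). 1700003E16Rik had 6.99, 7.31 and 7.47 in RbpjkCNULL lungs, against 6.39, 6.43 and 6.53 in control lungs (0.81, 1.75-fold). The control lungs of 1700003E16Rik lay closer to each other than its RbpjkCNULL lungs did.

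The other 2 of these 6 genes, and 3 further genes of the 28, encode no protein in RefSeq. The long noncoding RNA (lncRNA) 2310034G01Rik had log2 values of 6.80, 7.06 and 6.95 in RbpjkCNULL lungs, against 6.16, 6.28 and 5.83 in control lungs (difference 0.85, 1.80-fold). The lncRNA 1600029I14Rik had 5.70, 5.59 and 5.94 in RbpjkCNULL lungs, against 5.18, 4.48 and 5.07 in control lungs (0.83, 1.78-fold). Their groups did not overlap, but control replicate 2 of 1600029I14Rik stood well below the other control lungs. The pseudogene Gm10651 was higher by 0.79, the lncRNA 1700086L19Rik by 0.68 and the lncRNA 3300002A11Rik by 0.53. With 23 coding genes, 4 lncRNA genes and 1 pseudogene, 82.1% of the 28 genes were coding, against 42.9% of the other 1113 Rik and Gm genes. The sets also differed in level, since 25 of the 28 and 645 of the 1113 lay above the 25th percentile of mean expression. The part of expression level in the coding shares was not tested.

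Synonyms in RefSeq gave an identity to a few of the remaining coding genes. 1110017D15Rik is also listed as Cbe1 and Smrp1, a protein named for ciliated bronchial epithelium and for the manchette, a microtubule skirt of elongating spermatids. It had log2 values of 7.13, 7.17 and 7.02 in RbpjkCNULL lungs, against 6.52, 6.47 and 6.68 in control lungs (difference 0.55, 1.47-fold). Its promoter is one of those printed in full. 4430402I18Rik is also listed as Spata6l, a relative by name of the spermatogenesis gene Spata6, and had 6.61, 6.59 and 6.62 in RbpjkCNULL lungs, against 5.91, 5.74 and 5.94 in control lungs (0.74, 1.67-fold). The RbpjkCNULL lungs agreed more closely for 4430402I18Rik (SD 0.01, n = 3) than for any other of the 28 genes. 1700016K19Rik is also listed as Liat1, a ligand of the arginyltransferase Ate1, and had 7.75, 7.53 and 7.61 in RbpjkCNULL lungs, against 7.01, 6.96 and 7.16 in control lungs (0.59, 1.51-fold).

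The genes 1700024G13Rik and 1110032A03Rik are listed with the human open reading frames C10orf53 and C11orf1. The first was higher by 0.62 and the second by 0.43, and neither synonym states a function. 1700012B09Rik, with an RFX word in its promoter, had log2 values of 5.64, 5.71 and 6.01 in RbpjkCNULL lungs, against 4.89, 4.91 and 5.21 in control lungs (difference 0.78, 1.72-fold). 1700029J07Rik had 6.81, 7.24 and 7.15 in RbpjkCNULL lungs, against 6.14, 6.29 and 6.45 in control lungs (0.77, 1.70-fold). 1700001L19Rik, whose promoter holds facing RFX words, had 6.04, 6.28 and 6.27 in RbpjkCNULL lungs, against 5.65, 5.30 and 5.49 in control lungs (0.72, 1.64-fold). For these 3 genes as for the others the lowest RbpjkCNULL lung was above the highest control lung, which the rule required.

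For the remaining coding genes the differences are given alone. They were 0.76 for 4930562C15Rik, 0.70 for Gm12695, 0.63 for 2210408I21Rik, 0.58 for 6820408C15Rik and 0.54 for 4930505A04Rik. The difference was 0.51 for Gm973, 0.49 for 2410004P03Rik and 0.47 for 1700088E04Rik. All 28 symbols of the platform table were also the symbols in RefSeq, but so were those of all 1141 Rik and Gm genes. The symbols therefore cannot show whether any of the 28 genes has since been named as a part of cilia or flagella. A stem used for such parts, such as Cfap, Dnah or Tekt, was searched for among the synonyms and found for 1 gene (Spata6l).

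Over the 28 genes the median difference was 0.73 (1.66-fold), with a range of 0.43 to 1.18, and 20 genes were over 1.5-fold higher. The median over all 21225 genes was -0.05 and that over the 1141 Rik and Gm genes was -0.08. The gap between the lowest RbpjkCNULL and the highest control lung ran from 0.25 (1110032A03Rik) to 0.86. The SD among control lungs had a median of 0.17, that among RbpjkCNULL lungs 0.12, and the controls were the more variable group for 20 of the 28 genes. A mean expression above the 25th percentile of all genes was found for 25 of them, the exceptions being Gm10651, 1700086L19Rik and 4930505A04Rik, and 12 lay above the median of all genes.

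**Figure D2:**
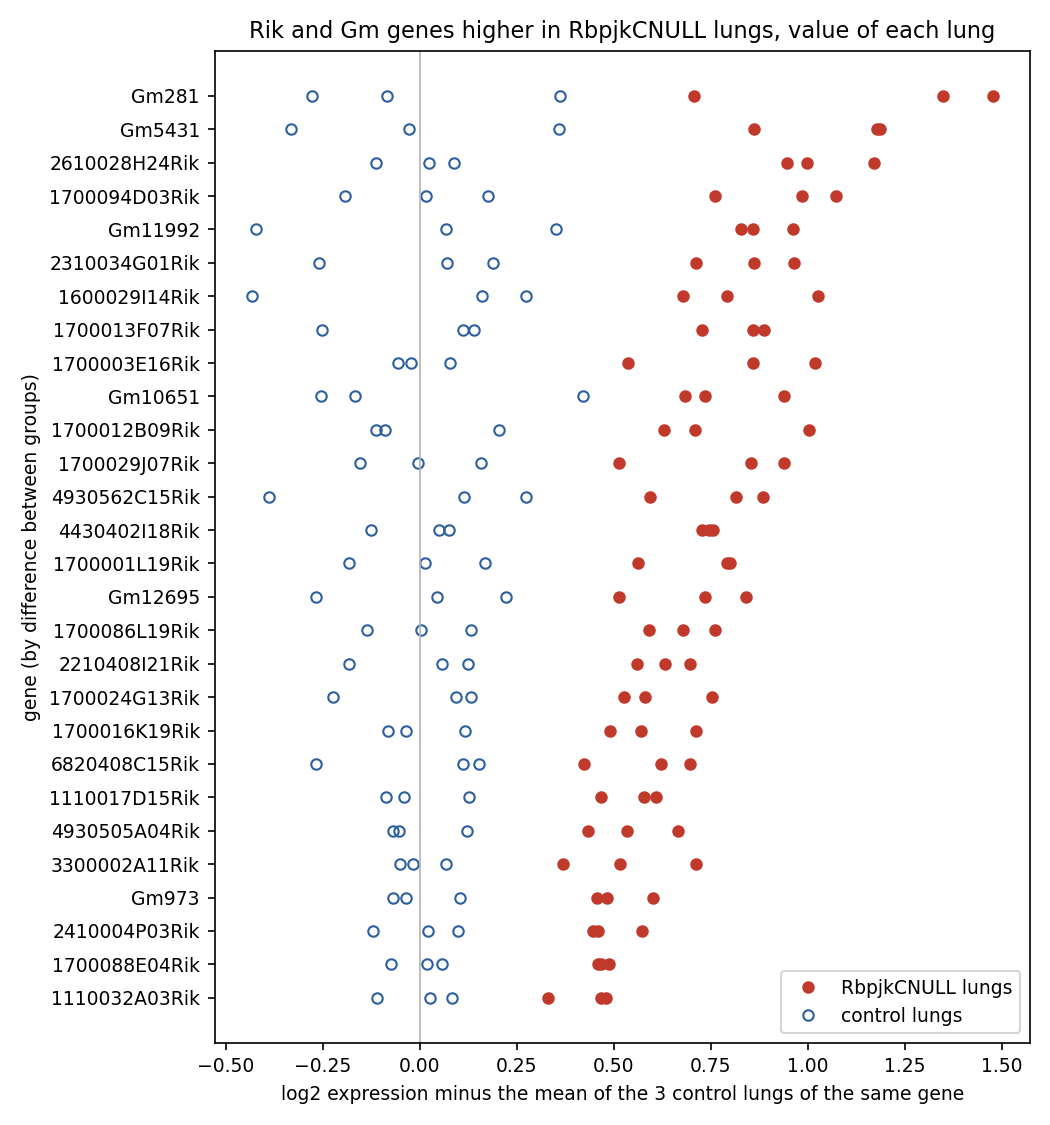
Log2 expression of each lung minus the mean of the control lungs of the same gene, for the 28 genes in order of their difference. Filled points are the 3 RbpjkCNULL lungs and open points the 3 control lungs, which do not overlap in any row because the rule required it, and differences run from 1.18 (Gm281) to 0.43 (1110032A03Rik).

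Near the threshold, values changed little from gene to gene. Just inside it lay 1110032A03Rik (0.43), 1700088E04Rik (0.47) and 2410004P03Rik (0.49). Just outside it, among Rik and Gm genes without overlap, lay 1810064F22Rik (0.39), Gm4459 (0.36) and 9530077C05Rik (0.32). Another 2 genes, Gm14698 (0.65) and C130026I21Rik (0.52), exceeded 0.4 but had overlapping groups. C130026I21Rik had log2 values of 4.68, 5.16 and 5.04 in RbpjkCNULL lungs, against 3.45, 4.54 and 5.31 in control lungs.

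Rik and Gm genes as a whole, a class set by name alone, were compared between the conditions with limma over all 21225 genes. Of the 1141 genes, 20 were called higher at an adjusted p under 0.05 (1.75%), against 1.16% of all genes. None was called lower by limma, against 0.113% of all genes, although 72 of them had a negative and 45 a positive difference with an unadjusted p below 0.05, and the methods' t-test called 0 in either direction after adjustment. The balance of these unadjusted counts turned with the setting, to 64 positive and 38 negative after quantile scaling and 53 positive and 35 negative without control replicate 3, and to 76 and 56 when the arrays' lower quartiles entered the model. The calls comprised 18 of 657 Rik genes (2.74%) and 2 of 484 Gm genes (0.413%), and the difference between these shares was not tested. Of the 20 genes, 18 are among the 28 described here and the other 2 are the pair left out by name. The 10 genes of the 28 that were not called had adjusted p of 0.0594 to 0.133 from limma.

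Fewer of these calls were made when single arrays were left out. Of the 28 genes, limma called 10 without RbpjkCNULL replicate 1, 2 without RbpjkCNULL replicate 2 and 3 without RbpjkCNULL replicate 3. It called 8 without control replicate 1, 8 without control replicate 2 and 14 without control replicate 3. Over all genes, limma called 246 higher with every array, and 213, 128 and 137 without RbpjkCNULL replicates 1, 2 and 3. It called 177, 189 and 185 of all genes higher without control replicates 1, 2 and 3. The methods' t-test called 0 of the 28 genes, and 8 of all genes higher. Since the rule used the same contrast, nothing more is read from the counts of the 28 genes.

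In the opposite direction 8 Rik and Gm genes met the mirrored rule (0.701%), against 0.485% of all genes. The most negative differences were those of Gm5168 (-0.75), 5830417I10Rik (-0.69), Gm7168 (-0.50), Gm6787 (-0.47) and Gm38424 (-0.46), and 0 of the 8 passed limma. 5830417I10Rik had log2 values of 7.76, 7.17 and 7.28 in RbpjkCNULL lungs, against 8.05, 8.05 and 8.18 in control lungs. Gm5168, Gm7168, Gm6787 and Gm5155, also of the 8, had group means of 2.42 to 4.37, below the lower quartile of every array (4.87 to 5.11). Gm5168, Gm6787 and 1700031F05Rik of the 8 lie on X, and the part of sex in their differences was not tested. Gm symbols made up 6 of these 8 genes, and 6 of the 28 higher ones, which is 1.24% of Gm genes in each direction. Of Rik genes, 3.65% met the conditions upward, with the pair left out by name counted, and 0.304% downward.

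**Figure D3:**
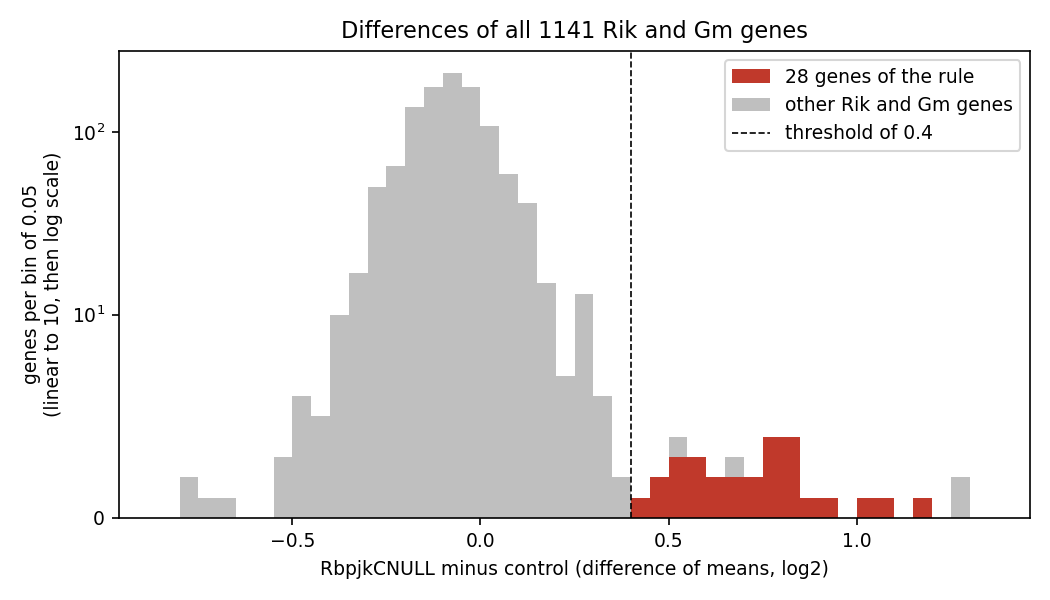
Number of Rik and Gm genes in each bin of 0.05 of the difference, RbpjkCNULL minus control on the log2 scale, with a vertical axis that is linear to 10 and logarithmic above. The 28 genes lie to the right of the dashed threshold of 0.4, where the grey genes are the pair left out by name and the 2 genes with overlapping groups, and the median of the class lies at -0.08.

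The RIKEN codes of the higher genes were set beside those of the other Rik genes. The code 1700 and those found here that start with 493 stand for adult testis and were carried by 12 of 22 Rik genes among the 28, or 54.5% (95% exact binomial interval 32.2 to 75.6). Of the other 635 Rik genes, 256 or 40.3% carried them (36.5 to 44.2), and the intervals overlap. Only these codes were counted, and whether further codes also stand for testis was not examined. The code 1700 alone was carried by 10 of the 22 genes (45.5%), against 16.9% of the others, whereas codes starting with 493 were carried by 2 of the 22 (9.09%), against 23.5%. The 28 genes lay on 16 chromosomes in RefSeq and 0 of them on X or Y.

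Markers of cell types were set beside the 28 genes. Of 35 markers of ciliated cells, a list without any Rik or Gm gene, limma called 26 higher and 0 lower, and their median difference was 0.89. Foxj1, the master regulator of motile ciliogenesis, had log2 values of 7.98, 7.89 and 7.95 in RbpjkCNULL lungs, against 6.86, 7.26 and 7.35 in control lungs (difference 0.78, standard error 0.13, adjusted p = 0.0333). The radial spoke gene Rsph4a rose by 1.24 (standard error 0.07, adjusted p = 0.00121) and the tektin Tekt2 by 1.01 (standard error 0.11, adjusted p = 0.00456). Rfx2 and Rfx3 did not pass, with differences of 0.23 (standard error 0.06, adjusted p = 0.287) and 0.37 (standard error 0.08, adjusted p = 0.107). For both genes the groups did not overlap. The upstream regulators of the fate on the list did not pass either and differed in sign, with -0.20 for Mcidas, -0.33 for Gmnc and 0.39 for Myb. Their groups overlapped for Mcidas, but not for Gmnc (adjusted p = 0.379 from limma) or Myb (adjusted p = 0.109 from limma). The share of all genes without overlap at a difference of any size is not given here. Nothing is therefore read from the lack of overlap of Rfx2, Rfx3, Gmnc and Myb. The part of ciliated cell number in the levels of the 28 genes was not tested, and in whole lungs more cells of a type cannot be told apart from more RNA per cell.

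The mean log2 level over the 28 genes was 6.60, 6.66 and 6.59 in RbpjkCNULL lungs, against 5.84, 5.80 and 6.02 in control lungs. Over the 35 ciliated markers it was 7.20, 7.32 and 7.30 in RbpjkCNULL lungs, against 6.41, 6.48 and 6.56 in control lungs. In both groups of genes control replicate 3 was the highest control lung. This held for 21 of the 28 genes (75%) and 23 of the 35 markers (65.7%), but also for 46.8% of all genes on the arrays. Control replicate 3 is also the control lung of low Xist, and the part of sex in this order was not tested. Among RbpjkCNULL lungs, replicate 1 was the lowest for 25 of the 35 markers (71.4%), against 11 of the 28 genes (39.3%) and 34.7% of all genes.

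Of 8 markers of CCs and other secretory cells, 8 were called lower, with a median of -1.92 and mean levels of 5.23 to 5.62 in RbpjkCNULL lungs, against 7.65 to 7.90 in control lungs. The study picked Scgb1a1, Scgb3a2, Cyp2f2, Reg3g, Gabrp and Krt15 on these arrays for being lower in RbpjkCNULL lungs, so the count is no independent evidence of its direction, and Krt15 is also a marker of basal cells. None of the 10 male germ cell markers was called by limma (at an unadjusted p under 0.05, 2 were lower), and their mean level was 4.02 to 4.19 in RbpjkCNULL lungs, against 4.12 to 4.29 in control lungs. Only 2 of these 10 markers lay above the 25th percentile of mean expression of all genes, so little can be read from the absence of calls. The median difference was -0.14 for male germ cell markers, -0.11 for 8 neuroendocrine markers, 0.12 for 6 alveolar type 2 markers and -0.05 for 5 alveolar type 1 markers, with 0 called in each list by limma. At an unadjusted p under 0.05, 1 neuroendocrine marker was lower and 1 alveolar type 2 marker higher.

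**Figure D4:**
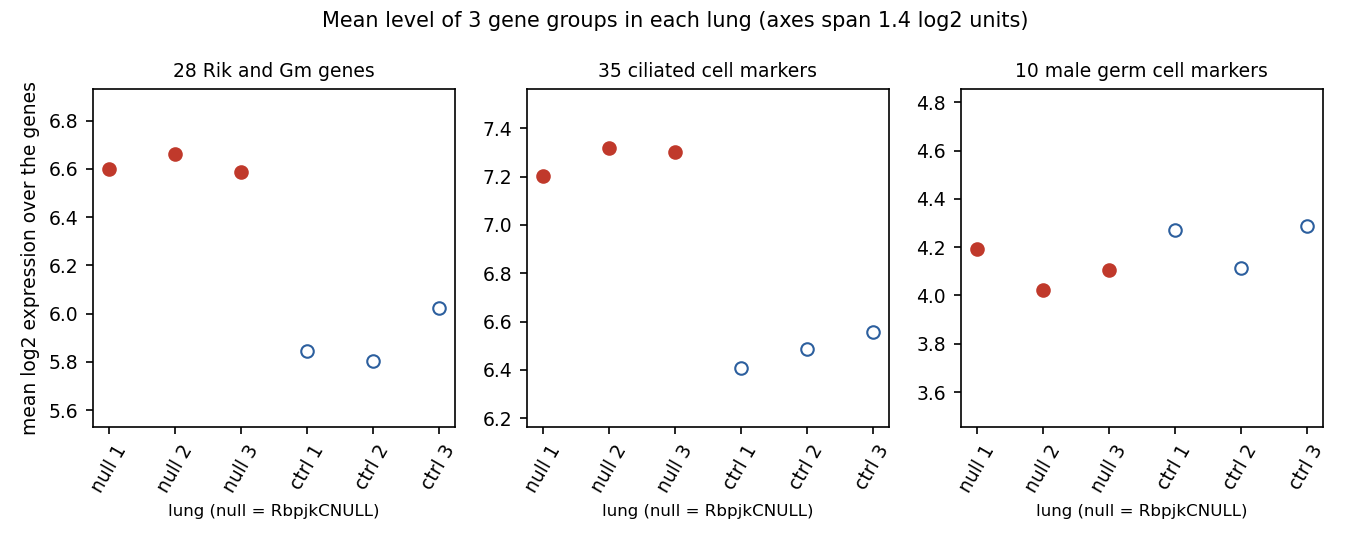
Mean log2 expression over the 28 Rik and Gm genes, 35 ciliated cell markers and 10 male germ cell markers in each lung, filled for RbpjkCNULL (null) and open for control (ctrl). The 28 genes and the ciliated markers were higher in each RbpjkCNULL lung (6.59 to 6.66 and 7.20 to 7.32) than in each control lung (5.80 to 6.02 and 6.41 to 6.56). The germ cell markers, most of them below the 25th percentile of mean expression of all genes, overlapped.

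Genes that share a start region with the 28 genes, or overlap them, were examined next. RefSeq start sites placed 5 of the 28 genes head to head with another gene, less than 1000 bases apart, and 0 of these 5 neighbours passed limma at an adjusted p under 0.05. 1700003E16Rik starts 25 bases from Wdr54, a WD repeat gene, which had log2 values of 6.46, 6.69 and 6.70 in RbpjkCNULL lungs, against 6.13, 6.25 and 6.23 in control lungs. The difference of Wdr54 was 0.41 (standard error 0.09, adjusted p = 0.109 from limma), its groups did not overlap, and the gene bodies of the pair overlap. 4430402I18Rik starts 34 bases from the lipid phosphatase gene Plpp6, whose difference was -0.10 (standard error 0.08). 1700088E04Rik starts 74 bases from Polr2f, a subunit of RNA polymerases, with a difference of -0.02 (0.06). 1110017D15Rik starts 104 bases from Fam219aos (-0.02, standard error 0.07) and 1700029J07Rik 276 bases from Ufsp2, a protease of the ufmylation pathway (-0.04, standard error 0.08).

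For 4 of the 5 pairs the RbpjkCNULL and control lungs of the neighbour overlapped, while those of the Rik gene lay apart by the rule. Gene bodies overlapped another RefSeq gene for 16 of the 28 genes, and 9 of the 19 overlapping genes were measured. Among these 9, limma called 1, Nme9, which overlaps the lncRNA 1600029I14Rik and encodes a thioredoxin-domain relative of nucleoside diphosphate kinases. Nme9 had log2 values of 7.82, 7.71 and 7.64 in RbpjkCNULL lungs, against 6.33, 6.62 and 6.57 in control lungs, a difference of 1.22 (standard error 0.10, adjusted p = 0.00224). Whether the probes of 1600029I14Rik also measure transcripts of Nme9 was not tested.

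**Figure D5:**
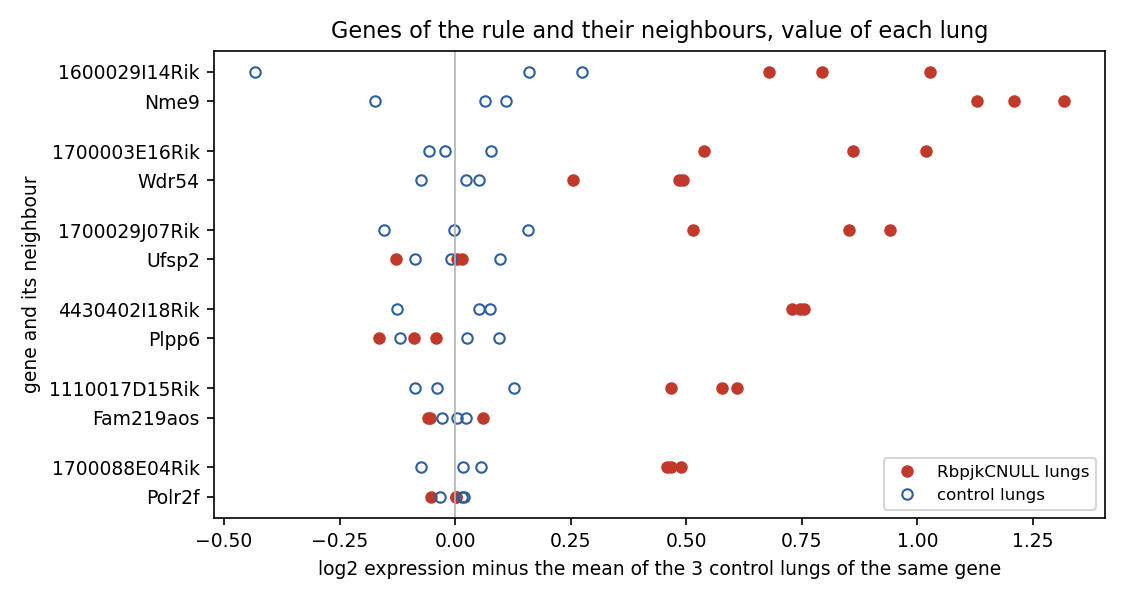
Log2 expression of each lung minus the mean of the control lungs of the same gene, for 6 genes of the rule and the gene paired with each, filled for RbpjkCNULL and open for control. Nme9 overlaps 1600029I14Rik and the other 5 neighbours start head to head, and Nme9 (1.22) and Wdr54 (0.41) lay above their controls in each RbpjkCNULL lung while the remaining 4 overlapped.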

How the data were processed

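Total RNA of whole E18.5 lungs was amplified, labelled and hybridised to Affymetrix Mouse Gene 1.0 ST arrays, and the authors normalized the arrays by RMA in R 2.12.0 with an Entrez Gene probe set mapping. The deposited log2 values were used as they stand. Of 21225 genes, 20239 had 1 symbol in the platform table and 986 had none. The comparison of groups used limma 3.58.1 in R 4.3.3 (lmFit and eBayes over all genes, Benjamini-Hochberg adjustment), a test tried first on simulated arrays with known changes. The methods' t-test, scalings, a filter, the replicate block and left-out arrays were alternatives, and no array was dropped from the main comparison. The genes described and the marker lists were chosen with earlier results of these data known. All 28 genes are named with their differences. Values in every lung are given for the largest differences, for genes whose promoter is printed and for genes with a function in their synonyms. The IRG relatives, neighbours and genes with overlapping groups were named after their values were seen. Promoters, symbols and synonyms are those of RefSeq (GRCm38.p6), matched by Entrez ID for all 1141 Rik and Gm genes. The build behind the probe mapping is not given in the sources used here. The labels do not say whether lungs came from separate litters, so p-values measure the spread between these lungs, and the number of arrays limits the precision.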

Additional observations from a re-analysis of the deposited data

How the results depend on the processing

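The rule gave 25 to 32 genes under the scalings, the filter and thresholds of 0.3 and 0.5, and 28 to 37 when single arrays were left out, against 28, and kept at least 25 of the 28 each time. For left-out arrays the sign of each gene's difference was fixed in advance, because the rule allowed no overlap of groups. The size of its move was limited in advance too, because leaving out 1 of 3 lungs shifts a group mean by less than the SD of that group. All 224 recomputed differences of single genes kept their sign and moved by less than the spread between lungs. Their median, 0.73, was 0.779 after quantile scaling, 0.658 to 0.762 when single arrays were left out and 0.561 against control replicate 3 alone, an alternative added after seeing the data. The methods' t-test called 0 Rik and Gm genes higher, 3 ciliated markers, and 8 genes higher and 0 lower over all genes (without adjustment, 734 were higher and 1035 lower). The balance of unadjusted limma results over all genes, 755 higher and 1055 lower, turned to 1045 and 682 after quantile scaling and 845 and 540 without control replicate 3, and was 875 and 873 after median centring. Leaving out single arrays gave 4 to 16 Rik and Gm genes higher and 0 to 2 lower, and 128 to 213 genes higher and 11 to 36 lower in all. Limma with trend called 1 Rik and Gm gene lower, as did the replicate block. The lower quartile as a covariate, also added later, gave 62 genes lower. The RFX word in 34.8% of promoters became 13% for the longer word and 8.7% for facing words, which were added after seeing the data. The labels do not say whether the replicate numbers pair the lungs. Deviations from group means correlated at 0.49, 0.31 and -0.09 for the numbers 1 to 3, and with 3 lungs per group these values cannot decide it. With the replicate block 16 of the 28 genes were called, against 18. Its unadjusted results over all genes were 881 higher and 1958 lower. Why the counts move was not tested.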
